A study of Homo sapiens with 6 samples.

Results

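Gene expression 1 day after addition of ponasterone A (PonA) was compared with that in ethanol alone, in U373 cells that carry an inducible syk construct. U373 is a human glioblastoma line, and stocks under this name are known to have been mixed up with another glioblastoma line. The comparison rests on 2 of the 6 arrays of the study, chosen by their labels: syk-transfected cells given ethanol and PonA at day 1, and syk-transfected cells given ethanol alone at day 1. The other 4 arrays are untransfected, untreated cells at day 1, syk-transfected untreated cells at day 1 and at day 2, and syk-transfected cells given ethanol and PonA at day 2. PonA was used at 10 µM, and the labels give 6 to 48 hours of exposure for the study as a whole, so the hours behind day 1 are not known. All conditions shared serum-containing medium. Whether the transfected cells were 1 clone or a pool is not given in the sources used here.

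Each condition was measured on 1 array. There is therefore no replicate, no test and no p-value, and every difference below is between 2 cultures. Untransfected cells did not receive PonA, so an effect of PonA itself and an effect of the construct it switches on cannot be told apart. In a culture measured as a whole, fewer cells that contain a transcript and less of it per cell cannot be told apart either.

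PonA is a plant steroid that acts as an insect moulting hormone. In an ecdysone-inducible system, mammalian cells are given a modified ecdysone receptor and its partner, the retinoid X receptor RXR, and the hormone lets this pair activate a promoter placed before the gene of interest, here syk. SYK is a cytoplasmic tyrosine kinase that carries signals from immune receptors to calcium, protein kinase C and the ERK kinases. ERK signalling is known to induce its own inhibitors, the DUSP phosphatases and the Sprouty proteins. Genes of mitosis are transcribed mainly in G2 and M phase, so a culture's content of their transcripts depends in part on how many of its cells are dividing. Cell division was not measured here.

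Values are MAS5 signals, a background-corrected intensity per probe set on a linear scale, which the authors had scaled to a common level. A lower limit, called the floor, was set at the 40th percentile of each array, and signals below it were raised to it. It was 26.5 for PonA, 25.4 for ethanol and 22.7 to 26.3 on the other 4 arrays. The gene counts use 1 probe set per gene, and 8226 genes had one. A gene counts as measured when either of the arrays compared had it above the floor, and a fold against the floor is a lower bound, written as "at least". Across probe sets the log2 signals of the 2 arrays correlated at 0.974, within a range of 0.946 to 0.985 over the pairs of the 6 arrays. The 3' to 5' ratio of GAPDH was 1.01 with PonA and 0.943 with ethanol, and that of beta-actin was 0.986 and 0.976. The hybridization spike-ins, which do not come from the cells, had a geometric mean of 501 with PonA, 271 with ethanol and 474 in untreated cells at day 1. Their part in the results was not tested.

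The tissue label was set against glial markers. VIM, the intermediate filament of glial and mesenchymal cells, had a signal of 6239 with PonA and 5640 with ethanol. CD44, a hyaluronan receptor, was at 1802 and 1633, and the glial fatty acid binding protein FABP7 was at 1505 and 1647. GFAP, the astrocyte filament, was at 193 and 114 on these arrays and between 103 and 229 on all 5 transfected arrays, against 1533 in untransfected cells. AQP4 and SLC1A2, an astrocyte water channel and glutamate transporter, were under the floor on both arrays. Of 13 glial and glioma markers on the array 10 were above the floor on at least 1 of these arrays. CHI3L1 was under it on both, and the glutamate transporter SLC1A3 was above it with PonA, at 193, but not with ethanol, at 22.8.

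Of 5749 genes measured, 175 (3.04%) were at least 2-fold higher with PonA than with ethanol and 133 (2.31%) were at least 2-fold lower. The median log2 difference over all measured genes was 0.02, and the 5th and 95th percentiles were -0.70 and 0.81. Without PonA, 2.01% of genes were at least 2-fold apart in either direction between ethanol and untreated cells at day 1, and 3.15% between untreated cells at day 2 and day 1. These values are not replicates, yet they show how far 2 uninduced arrays lay apart: the SD of the log2 differences was 0.39 for ethanol over untreated cells and 0.51 for PonA over ethanol. Among the 1917 brightest genes, with mean signals from 219 to 8439, 5.22% were at least 2-fold apart with PonA and 0.522% with ethanol over untreated cells. Among the 1916 dimmest genes the shares were 5.58% and 3.65%, so the ratio of the shares was larger among the brightest genes.

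The fold sizes were modest for most genes. Of the 175 higher genes, 34 were under the floor with ethanol and have only a bound, 23 were at least 4-fold higher and 4 at least 8-fold. Of the 133 lower genes, 31 were under the floor with PonA, 14 were at least 4-fold lower and 0 at least 8-fold. Genes just inside the limit had log2 differences of 1.00 in size, and so did those just outside it, such as ORC1, an origin recognition subunit, at 95.8 against 47.9. The counts depended on the floor. With the floor at the 20th percentile they were 351 higher and 322 lower, and with the floor at the 60th percentile 91 and 72.

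**Figure D1:**
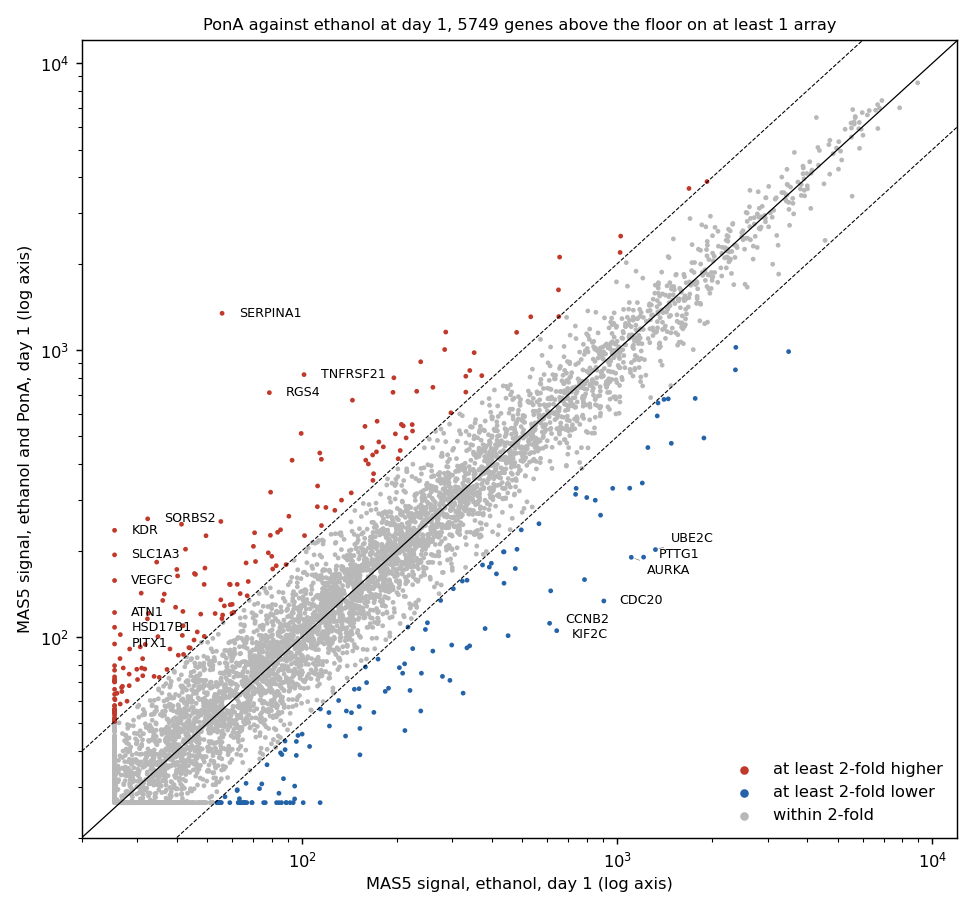
MAS5 signal of each of 5749 genes with ethanol and PonA (y) against ethanol alone (x) at day 1, both on log axes and raised to the floor, with dashed lines at 2-fold. The 175 genes in red lie at least 2-fold above the diagonal and the 133 in blue at least 2-fold below it; SERPINA1 lies farthest above at 1343 against 55.7, and points lined up at the left and bottom edges are at the floor.

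A wider control set was used to ask how many of these genes stood apart from all uninduced transfected cells and not only from the ethanol array. Of the 175 higher genes, 169 had a higher signal with PonA than in ethanol-treated cells at day 1 and untreated cells at both days, and 93 (53.1%) exceeded all 3 by at least 2-fold. Of the 133 lower genes, 119 were below all 3, and 78 (58.6%) by at least 2-fold. The PonA and ethanol arrays of day 1 are part of both the choice and this count, so only the untreated arrays bring new values to it. A stray value on the PonA array would carry over to all 3 controls. The same counts over all measured genes are not given here.

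The construct's own gene was looked at first among single genes. SYK has 3 probe sets on this array. The brightest was at 56.3 with PonA and 64.1 with ethanol, against 73.1 in untreated cells at day 1, 22 at day 2, 35.2 with PonA at day 2 and 31.0 in untransfected cells. Another was under the floor on all 6 arrays, with 4.41 on the PonA array. The remaining one was at 39.1 with PonA and, under the floor, at 14.4 with ethanol, which makes it at least 1.54-fold higher. It was under the floor in untreated cells of both days, with 22.2 at day 1, and in untransfected cells, with 1.74, and was at 72.5 with PonA at day 2. Thus 1 of the 3 probe sets was above the floor only with PonA, and at day 1 the others were not above their ethanol signal. Over untreated cells at day 2, that probe set was at least 3.12-fold higher and the brightest one at least 1.52-fold. Whether the construct's transcript holds the sequence these probes read is not given in the sources used here. A kinase of the same family, ZAP70, was at 26.6 with PonA, which is close to the floor, under the floor with ethanol and at 35.2 in untreated cells at day 1.

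RXRA, the human retinoid X receptor alpha, differed between its probe sets. The brighter of 2 was at 640 with PonA and 867 with ethanol, lay between 640 and 867 on all 5 transfected arrays, and was at 95 in untransfected cells. The other was at 265 and 255, lay between 239 and 266 on the transfected arrays, and was at 375 in untransfected cells. Neither was 2-fold apart between PonA and ethanol. Of 12 measured members of a list of RXR and its partner receptors, 1 was at least 2-fold higher and 0 lower. The shares over all genes were 3.04% and 2.31%. The higher member was VDR, the vitamin D receptor, at 70.0 with PonA and 3.54 with ethanol, which is at least 2.75-fold. VDR was under the floor in all 4 arrays without PonA and at 68.9 with PonA at day 2.

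Genes of mitosis made up the largest share of the lower genes among the lists. The 4 lists on mitosis held 54 measured genes. Of these, 36 (66.7%) were at least 2-fold lower with PonA, against 2.31% of all genes, and 0 were at least 2-fold higher. The lists were chosen with earlier results of these data known, so part of this gap may follow from the choice. The same limit applies wherever the share of another list is set against that of all genes. Lower signals at any size were seen for 51 of the 54, and the median log2 difference was -1.33, against 0.02 for all genes. These 36 genes were 27.1% of the 133 lower genes. In 49 of the 54 the signal with PonA was below all 3 uninduced transfected arrays. The same count over all measured genes is not given here, and the ethanol array is among the 3. Without PonA the same 54 genes had a median of -0.15 for ethanol over untreated cells and 0.14 for untreated cells at day 2 over day 1.

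The proximal promoters of the most strongly lower mitosis genes are shown because these genes moved together and because cell cycle promoters are known for a CCAAT box, bound by the factor NF-Y, and for the cell cycle gene homology region, bound by the DREAM complex. Capitals mark every CCAAT and every TTTGAA or TTTAAA, read on both strands, so that ATTGG and TTCAAA are marked too. In PTTG1 a CCAAT and an ATTGG overlap in CCAATTGG. The sequences are from RefSeq, GRCh38.p14, and run 5′ to 3′ toward the most upstream start listed for the gene, over its last 250 bases. CDC20 is at chr1:43358731-43358980, PTTG1 at chr5:160421605-160421854, KIF2C at chr1:44739587-44739836 and CCNB2 at chr15:59104896-59105145, all on the plus strand. PTTG1 has 2 starts in the table and the others 1.
CDC20: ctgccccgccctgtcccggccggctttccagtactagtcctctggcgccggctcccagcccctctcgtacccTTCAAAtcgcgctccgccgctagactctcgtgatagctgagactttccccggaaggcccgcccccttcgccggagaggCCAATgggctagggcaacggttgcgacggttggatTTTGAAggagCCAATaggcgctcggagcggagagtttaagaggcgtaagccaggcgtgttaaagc
PTTG1: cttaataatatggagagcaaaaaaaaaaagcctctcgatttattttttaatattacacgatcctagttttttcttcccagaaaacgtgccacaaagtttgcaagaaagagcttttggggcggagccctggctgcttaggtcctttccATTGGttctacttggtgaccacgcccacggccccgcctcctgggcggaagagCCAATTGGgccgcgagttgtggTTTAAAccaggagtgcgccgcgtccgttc
KIF2C: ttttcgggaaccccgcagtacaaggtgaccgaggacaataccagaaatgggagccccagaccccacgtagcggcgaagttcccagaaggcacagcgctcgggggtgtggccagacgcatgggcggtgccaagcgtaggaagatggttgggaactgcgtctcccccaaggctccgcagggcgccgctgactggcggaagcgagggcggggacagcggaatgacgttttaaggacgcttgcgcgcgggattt
CCNB2: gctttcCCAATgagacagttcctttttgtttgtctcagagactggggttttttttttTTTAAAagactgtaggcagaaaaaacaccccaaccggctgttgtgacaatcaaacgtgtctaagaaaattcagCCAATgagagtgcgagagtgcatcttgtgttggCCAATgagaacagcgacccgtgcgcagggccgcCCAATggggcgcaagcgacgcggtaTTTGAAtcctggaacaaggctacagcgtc

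The window of CDC20 holds 4 of these matches, that of PTTG1 4, that of CCNB2 6 and that of KIF2C 0. No window was used for UBE2C and AURKA. Over windows of the same table that also take in 50 bases after the start, 21 of 29 lower mitosis genes with an entry (72.4%) held CCAAT, and 21 of 29 (72.4%) held TTTGAA or TTTAAA. Among all 4714 measured genes with an entry these shares were 36.5% and 16%, and among all 27305 genes with an entry 35.7% and 24.4%. Both kinds of match in the same window were found in 16 of the 29 (55.2%), against 6.85% of measured genes. Lower genes outside the mitosis lists lay between, with CCAAT in 41 of 82 (50%) and both kinds in 16 of 82 (19.5%). Among 141 higher genes with an entry, 41 (29.1%) held CCAAT and 10 (7.09%) both kinds. A match describes letters only and not binding.

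Mitotic entry kinases and cyclins were lower in 12 of 17 measured members by at least 2-fold, with a median log2 difference of -1.73. CCNB1, the cyclin that activates CDK1 for entry into mitosis, was at 159 with PonA and 787 with ethanol, against 781 and 1020 in untreated cells at days 1 and 2, 94.5 with PonA at day 2 and 1160 in untransfected cells. Its difference was 4.96-fold, and both PonA arrays lay far below the 4 others. CCNB2, its close relative, was at 112 against 610, 5.46-fold lower. AURKA, the kinase that matures centrosomes, was at 190 against 1108, with 1185 and 1257 in untreated cells and 142 with PonA at day 2. TPX2, which activates AURKA on the spindle, was at 145 against 615, 4.24-fold lower. CCNF, the cyclin F subunit of a ubiquitin ligase, was 4.45-fold lower at 101 against 450. Its other probe sets gave less, with log2 differences of -0.71 and -1.50.

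PLK1, a kinase needed from mitotic entry to exit, was at 300 against 851, and FOXM1, a transcription factor of G2 genes, at 166 against 414. CDC25C, the phosphatase that activates CDK1, was at 13.2 with PonA, under the floor, and 91.6 with ethanol, at least 3.46-fold lower. Its signal was 93.4 and 120 in untreated cells, so it was above the floor in all 4 conditions without PonA, including 148 in untransfected cells. CDK1 itself was not lower at day 1, with 168 against 166, although it was at 260 in untreated cells at day 1. PKMYT1 and WEE1, kinases that hold CDK1 inactive, were at 261 against 226 and 307 against 341.

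Genes of the spindle checkpoint and of the anaphase-promoting complex, the ubiquitin ligase that ends mitosis, differed unevenly. Of 15 measured members 9 were at least 2-fold lower, with a median of -1.35. CDC20, the activator of that ligase, was lower by more than any other gene measured on both arrays, with 134 against 906 (6.78-fold). It was at 850 and 956 in untreated cells, 99.4 with PonA at day 2 and 1214 in untransfected cells. UBE2C, its ubiquitin-conjugating enzyme, was at 202 against 1321 (6.55-fold), and PTTG1, securin, which holds separase until anaphase, at 190 against 1212 (6.38-fold). The PonA arrays of both days did not overlap with the other arrays in any of these 3 genes. They were picked by their day 1 difference of PonA and ethanol, so part of this gap follows from the choice. How many of all measured genes separate in the same way is not given here. BUB1B, a checkpoint kinase homologue, was at 47.3 against 212, and BUB1 was under the floor at 23.0 against 89.1, at least 3.36-fold. Core subunits of the ligase and FZR1, its activator in G1, were within 2-fold: CDC16 had log2 -0.20, CDC23 -0.24, CDC27 -0.39 and FZR1 -0.29. The checkpoint gene BUB3 was within 2-fold as well, at 514 against 847 (log2 -0.72).

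Motor and spindle proteins were lower in 7 of 9 measured members by at least 2-fold, with a median of -1.18. KIF2C, a kinesin that takes apart microtubules at centromeres, was at 105 against 642 (6.10-fold), and KIF11, which pushes spindle poles apart, at 55.3 against 238 (4.31-fold). With untreated cells of day 1 as the control the median of this list was -1.64. In the list of centromere, condensin and lamina genes 8 of 13 were at least 2-fold lower, with a median of -1.20. LMNB1, lamin B1 of the nuclear lamina, was at 70.7 against 294, TOP2A, which untangles chromosomes, at 107 against 381, and MKI67, the Ki-67 proliferation marker, at 65.2 against 220. HMGN2 and H2AZ1, chromatin proteins that are abundant in most cells, were at log2 -0.18 and -0.25.

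DNA replication genes differed less. Of 24 measured members of the origin and fork list 1 was at least 2-fold lower, POLA2, a subunit of the polymerase that starts DNA chains, at 56.2 against 114. The median log2 difference was -0.35, and 19 of 24 were lower at any size. Of all measured genes, 2.31% were at least 2-fold lower at day 1 and 47.7% were lower at any size. MCM7, part of the replicative helicase, and FEN1, a flap endonuclease, both had log2 -0.95, at 237 against 457 and 199 against 384. Among 7 genes of deoxynucleotide synthesis all were lower, 1 by at least 2-fold: TYMS, thymidylate synthase, at 1022 against 2377. At day 2, PonA over untreated cells gave at least 2-fold lower values for 9 of the replication list, with a median of -0.85, and for 5 of the deoxynucleotide list, with a median of -1.72. Over all genes of that comparison the share was 3.84%. A difference between the days was not tested.

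Among genes that stop the cycle or start G1, 0 of 18 were at least 2-fold higher and 1 was lower. The shares over all genes were 3.04% and 2.31%. CDKN1A, the p21 inhibitor induced by p53, was at 226 against 232. CDKN2D, the p19 inhibitor of CDK4 and CDK6, was lower at 134 against 275. CCND1, cyclin D1, was at 171 against 122 with 203 in untreated cells, and MYC was at 232 against 176. The p53 target list had 0 of 9 measured members 2-fold apart, with a median of 0.04.

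SERPINA1 had the largest difference of all genes. It encodes alpha-1 antitrypsin, a secreted inhibitor of neutrophil elastase made mainly by liver. Its signal was 1343 with PonA and 55.7 with ethanol, a difference of 24.1-fold, with 61.8 and 53.3 in untreated cells at days 1 and 2, 988 with PonA at day 2 and 42.9 in untransfected cells. Both PonA arrays lay far above the 4 others, which spanned 42.9 to 61.8. In the list of serpins, proteases and inhibitors it was the 1 of 19 measured members at least 2-fold higher, against 3.04% of all genes. Those lower were SERPINB9, an inhibitor of granzyme B, at 24.6 under the floor against 76.4, and MMP7, matrilysin, at 198 against 435. Of all genes 2.31% were at least 2-fold lower. The list's median was 0.02, as it was for all genes, and 0.46 with untreated cells as the control.

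RGS4 shortens signals of G protein-coupled receptors. It was at 711 with PonA and 78.7 with ethanol (9.03-fold), with 59.4 and 52.0 in untreated cells, 1273 with PonA at day 2 and 63.9 in untransfected cells. Its second probe set had 602 against 88.2. The upstream windows of SERPINA1 and RGS4, the genes with the largest positive differences measured on both arrays, are given for comparison with those above and hold neither an AP-1 site (TGANTCA) nor a nuclear receptor core motif (AGGTCA) on either strand. SERPINA1 is at chr14:94390636-94390885 on the minus strand, with 2 starts in the table, and RGS4 at chr1:163068621-163068870 on the plus strand, with 4, and the most upstream start was taken from GRCh38.p14. Which start these cells use was not measured. Among higher genes, windows with 50 bases after the start held TGANTCA in 5.67% and AGGTCA in 7.80%, against 4.75% and 9.61% of measured genes.
SERPINA1: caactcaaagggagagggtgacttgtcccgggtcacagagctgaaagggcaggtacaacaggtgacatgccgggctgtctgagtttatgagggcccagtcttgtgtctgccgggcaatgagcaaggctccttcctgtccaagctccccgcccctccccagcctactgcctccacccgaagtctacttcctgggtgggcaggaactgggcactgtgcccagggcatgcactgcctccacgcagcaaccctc
RGS4: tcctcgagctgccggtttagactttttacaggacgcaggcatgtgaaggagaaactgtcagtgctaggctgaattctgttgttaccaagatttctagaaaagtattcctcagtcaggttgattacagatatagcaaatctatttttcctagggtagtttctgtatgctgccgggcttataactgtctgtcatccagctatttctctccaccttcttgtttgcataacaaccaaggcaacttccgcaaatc

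Receptors and membrane proteins followed among the highest genes. TNFRSF21, death receptor 6, was at 821 against 101 (8.10-fold), with 68.7 and 30.6 in untreated cells, 524 with PonA at day 2 and 87.0 in untransfected cells. It was the 1 gene at least 2-fold higher among 20 measured BCL2 family genes, death receptors and caspases, whose median was 0.08. The share over all genes was 3.04%. EMP1, an epithelial membrane protein, was at 247 against 41.4 (5.97-fold), and at 211 against 52.3 on its second probe set. RIN2, a RAB5 exchange factor that binds RAS, was at 669 against 144 (4.63-fold). DCLK1, a microtubule-associated kinase, was at 225 against 49.6 (4.55-fold), while its second probe set was under the floor on both arrays.

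MAP2K3, the kinase that activates p38, was at 512 against 99.3 (5.16-fold), with 102 and 125 in untreated cells and 528 with PonA at day 2. RCAN2, an inhibitor of calcineurin, was at 142 against 30.9 (4.61-fold), but at 105 in untransfected cells. It was the 1 gene at least 2-fold higher among 7 measured genes of calcineurin, RCAN and NFAT, against 3.04% of all genes. ATXN1, ataxin 1, was at 253 against 55.2 (4.58-fold), with 102 in untreated cells at day 1. CITED1, a transcriptional coactivator, was the 1 gene outside the mitosis lists among the 12 most strongly lower, at 63.8 against 324, with 300 and 330 in untreated cells, 59.1 with PonA at day 2 and 146 in untransfected cells.

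**Figure D2:**
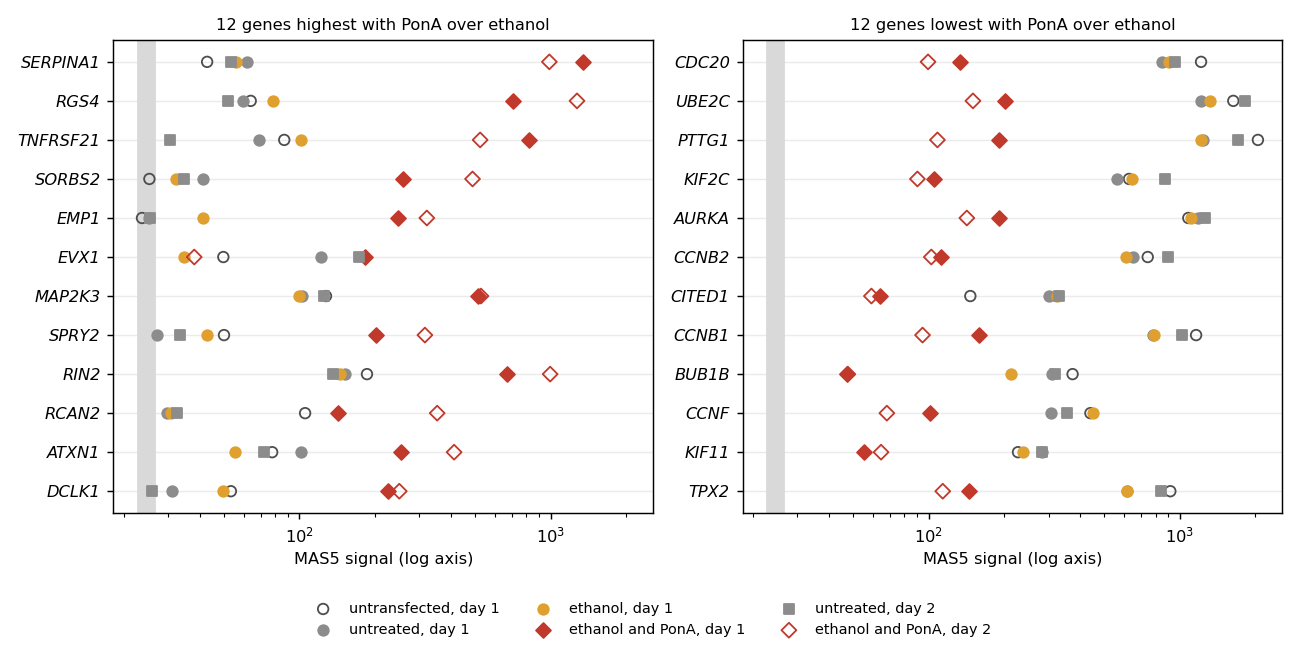
MAS5 signal (log axis) of the 12 highest and the 12 lowest genes with PonA over ethanol among those above the floor on both arrays, on all 6 arrays; the grey band spans the 6 floors. In 11 of the 12 higher genes and 12 of the 12 lower ones the PonA array of day 1 lies at least 2-fold beyond every uninduced transfected array, and the exception is EVX1, where untreated cells were at 122 and 173 against 183 with PonA. The PonA and ethanol arrays of day 1 chose the genes, so part of this gap follows from the choice.

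Inhibitors of ERK and of the MAP kinases were among the higher genes. Of 22 measured genes of the DUSP, Sprouty and ERK list, 7 were at least 2-fold higher, against 3.04% of all genes, 0 were lower, and the median log2 difference was 0.55. The 7 include MAP2K3, described above, which is an activating kinase and not an inhibitor, at 5.16-fold. SPRY2, an inhibitor of growth factor receptor signalling, was at 202 against 42.7 (4.74-fold), with 27.1 and 33.3 in untreated cells and 316 with PonA at day 2. SPRY1 was at 73.3 against 31.2. DUSP6, the phosphatase for ERK in the cytoplasm, was at 264 against 90.8 (2.90-fold), but ethanol alone was above the 40.5 of untreated cells. DUSP1, a nuclear MAP kinase phosphatase, was at 742 against 260, with 122 in untreated cells, so for both phosphatases ethanol lay between untreated cells and PonA. DUSP7 was at 237 against 85.4, with 112 in untreated cells, and DUSP5 at 122 against 60.7. DUSP4 was at 38.5 and under the floor with ethanol, at least 1.52-fold.

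Transcription factors downstream of ERK showed fewer differences, with 2 of 22 at least 2-fold higher, against 3.04% of all genes, and a median of 0.31. FOSB, an AP-1 subunit, was at 141 against 36.5 (3.86-fold), with 57.2 and 63.4 in untreated cells and 104 in untransfected cells. ETV5, an ETS factor that ERK induces, was at 605 against 297 with ethanol and 115 in untreated cells, and at 826 with PonA at day 2. FOS was at 81.0 against 63.4, JUN at 133 against 122 and EGR1 at 144 against 84.4.

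Growth factors and their receptors contained several of the genes that were below the floor without PonA. KDR, the receptor for VEGF on endothelial cells, was at 236 with PonA and 23.1 with ethanol, at least 9.27-fold. It was under the floor at 25.7 and 17.6 in untreated cells and 9.09 in untransfected cells, and was at 418 with PonA at day 2. Its second probe set was at 52.4 against 4.19, at least 2.06-fold. VEGFC, a ligand of KDR and of the lymphatic receptor FLT4, was at 157 against 24.2, at least 6.19-fold, and likewise under the floor on the 4 arrays without PonA. PGF, placental growth factor, was at 245 against 115, and TEK, the angiopoietin receptor, at 61.0 against 11.2, at least 2.40-fold. These were the 4 genes at least 2-fold higher among 20 measured in the VEGF, PDGF and FGF list, with 0 lower and a median of 0.27. Over all genes 3.04% were higher and 2.31% lower. Both VEGFC and KDR were above the floor only with PonA, at both days.

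In the EGF family list 1 of 8 was at least 2-fold higher, HBEGF, a ligand of EGFR that is shed from the membrane, at 165 against 45.9 (3.60-fold). EGFR itself was at 96.2 against 120. In the TGF-beta list 3 of 19 were at least 2-fold higher and 0 lower, against 3.04% and 2.31% of all genes. TGFBR2, the receptor that binds the ligand, was at 163 against 40.3 (4.06-fold), SMAD7, the pathway's inhibitor, at 153 against 58.9, and TGFB1, the ligand, at 2496 against 1025 with 980 in untreated cells.

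Of the matrix and cytoskeletal genes, 22 of 26 collagens, laminins and matricellular genes and 14 of 17 actin genes were above their ethanol value at any size, against 52.3% of all measured genes. Over untreated cells of day 1 these counts were 16 of 26 and 15 of 17. At least 2-fold higher were 4 of the 26, with a median of 0.22, and 3 of the 17, with a median of 0.46, against 3.04% of all genes. CCN1, a matricellular protein of the early growth response, was at 801 against 196 (4.10-fold), LAMB1, a laminin chain, at 565 against 173, and COL1A1, a chain of collagen I, at 121 against 32.5. THBS1, thrombospondin 1, was at 1005 against 283, with 640 and 251 in untreated cells at days 1 and 2 and 242 in untransfected cells, so the untreated cells of day 1 stood above the other arrays without PonA. SORBS2, an adaptor at actin stress fibres, was at 258 against 32.4 (7.98-fold), CALD1, caldesmon, at 320 against 79.5, and MYH9, non-muscle myosin, at 2189 against 1021. Among surface proteins ITGA7, a laminin receptor subunit, was at 1156 against 286 (4.05-fold) and GPC4, a heparan sulfate proteoglycan, at 438 against 114.

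Metabolic genes differed in single members. SCD, the desaturase that makes oleate, was at 413 against 93.0 (4.45-fold), with 94.0 and 58.5 in untreated cells. DHCR7, the last step of cholesterol synthesis, was at 1309 against 652, just past 2-fold. GCLC and GCLM, the subunits of the enzyme that starts glutathione synthesis, were at 336 against 112 (log2 1.59) and 197 against 78.1 (log2 1.33). ALDH1A3, which makes retinoic acid, was at 116 against 55.7, and ALDH3B1 was lower at 54.5 against 143. CA12, a carbonic anhydrase, was at 318 against 143 and NDRG1, a stress-responsive gene, at 3865 against 1926. Of the lists these belong to, that of retinoid handling and aldehyde dehydrogenases is not counted here. In the others, 2 of 17 sterol and fatty acid genes, 2 of 22 antioxidant genes and 2 of 25 hypoxia and glycolysis genes were at least 2-fold higher, against 3.04% of all genes. Their medians were 0.18, -0.05 and 0.13.

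Immune and stress lists showed little beyond single genes. Of 21 measured signalling partners of SYK 1 was at least 2-fold higher and 1 lower, with a median of 0.07. The shares over all genes were 3.04% and 2.31%, and they stand beside the other 2-fold counts of this paragraph too. INPP5D, the SHIP1 phosphatase, was at 77.4 against 31.7, with 44.4 and 39.9 in untreated cells and 61.4 in untransfected cells. LAT, an adaptor of T cell receptor signalling, was under the floor at 25.6 against 114, with 56.6 in untreated cells at day 1. With PonA over untreated cells at day 2, both were within 2-fold, INPP5D at log2 0.17 and LAT at -0.57. Of 21 interferon-stimulated genes 15 were lower at any size, against 47.7% of all measured genes, with a median of -0.24, and 1 at least 2-fold: IFIT1, an inhibitor of viral translation, at 57.3 against 152. With untreated cells as the control that median was 0.07 and 9 of the 21 were lower. In the NF-kB and cytokine list IL1R1, the interleukin 1 receptor, was at 84.2 against 26.4, and CXCL8, the chemokine interleukin 8, was under the floor at 6.20 against 54.7, but also under it at 22.8 in untreated cells at day 1. The 12 heat shock genes had 1 higher member, HSPA4, at 121 against 59.9.

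The 17 ribosomal protein genes and 23 oxidative phosphorylation genes measured had 0 members at least 2-fold apart, with medians of 0.04 and 0.01. Of all genes 3.04% were at least 2-fold higher and 2.31% at least 2-fold lower. RPLP1 was at 6979 against 6788 and NDUFA1, a complex I subunit, at 4136 against 4119. The abundant transcripts of both lists thus lay at nearly the same level on both arrays.

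**Figure D3:**
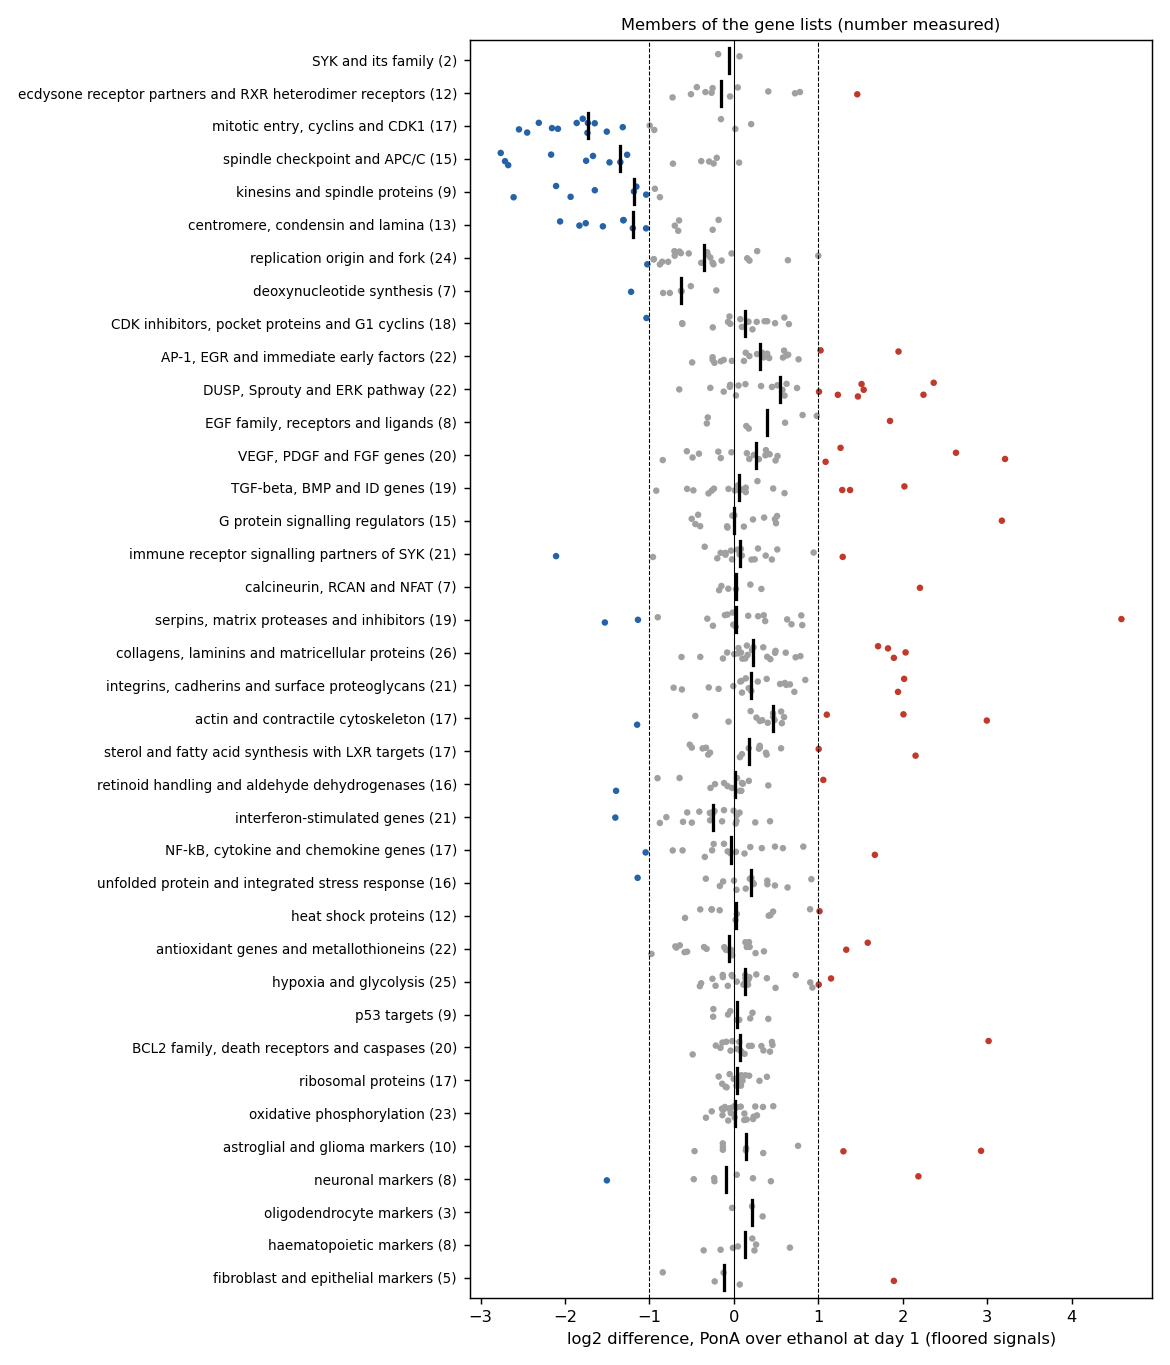
Log2 difference of PonA over ethanol at day 1 for each measured member of 38 gene lists, with the number measured in parentheses, black ticks at the list medians and dashed lines at 2-fold. The 4 mitosis lists have medians between -1.73 and -1.18, the DUSP, Sprouty and ERK list a median of 0.55, and the ribosomal and oxidative phosphorylation lists lie within 2-fold throughout; a gene that belongs to 2 lists is drawn in both.

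For some genes the ethanol array stood apart from the untreated cells of the same day, and the difference with PonA turns on it. EVX1, a homeobox gene, was at 183 with PonA and 34.6 with ethanol (5.28-fold), but at 122 and 173 in untreated cells, 38.1 with PonA at day 2 and 49.8 in untransfected cells. ATN1, atrophin 1, was at 122 with PonA and under the floor at 17.1 with ethanol, yet between 88.6 and 118 on the other 4 arrays. SEMA5A, an axon guidance protein, was under the floor at 23.0 with PonA against 89.0 with ethanol, but also under it at 21.2 in untreated cells, and its second probe set was at 38 against 25.5. DDIT3, the CHOP factor of the integrated stress response, was at 181 against 399 with ethanol, with 201 in untreated cells and 441 with PonA at day 2. ACTA2, smooth muscle actin, was at 39.0 against 86.3, but under the floor at 17.1 in untreated cells, so its log2 difference of -1.15 became 0.57 with untreated cells as the control. MYH9, GCLM, HSPA4, INPP5D and THBS1 were also within 2-fold of the untreated cells of day 1, where MYH9 was at 1222, GCLM at 114 and HSPA4 at 78.8.

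Several of the other genes under the floor on 1 side were less uniform across arrays than KDR and VEGFC. SLC1A3, the glial glutamate transporter GLAST, was at 193 against 22.8, at least 7.61-fold, with 38.8 and 24.0 in untreated cells, 225 with PonA at day 2 and 82.0 in untransfected cells; its second probe set was under the floor throughout. HSD17B1, an estradiol-forming enzyme, was at 108 against 24.4, but at 54.1 and 59.1 without and with PonA at day 2 and 105 in untransfected cells, and its second probe set was at 29.5 against 33.4. PITX1, a homeobox gene, was at 94.6 against 22.7, with 85.9 in untransfected cells. RPL39L, a ribosomal protein paralogue, was uniform in this respect. It was under the floor at 11.1 with PonA against 101 with ethanol, and also at 19.8 with PonA at day 2. It was above the floor at 74.0 and 88.2 in untreated cells and at 73.0 in untransfected cells. SLC38A3, a glutamine transporter, was under the floor at 21.1 against 93.7, with 90.2 and 38.9 in untreated cells.

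At day 2, PonA was compared with untreated cells, because no ethanol array of that day was analysed here. This comparison shares no array with the one at day 1, and in it 4.59% of 5753 genes lay higher by 2-fold or more and 3.84% lay lower by as much. Of the 175 genes higher at day 1, 94 (53.7%) were at least 2-fold higher at day 2, 78 were within 2-fold and 3 were at least 2-fold lower. Of the 133 lower genes, 81 (60.9%) were at least 2-fold lower, 52 were within 2-fold and 0 were higher. The medians for the higher genes were 1.33 at day 1 and 1.23 at day 2, and for the lower genes -1.32 and -1.33. In the 54 mitosis genes the median was -2.07 at day 2.

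Single genes took different courses. PTTG1 was 6.38-fold lower at day 1 and 15.8-fold lower at day 2, with 108 against 1708. RGS4 was 9.03-fold higher and then 24.5-fold, and ETV5 2.04-fold and then 7.44-fold. SERPINA1 was 24.1-fold and 18.5-fold higher. FOSB was 3.86-fold higher at day 1 and at 72.5 against 63.4 at day 2, and COL1A1 was 3.72-fold higher and then 1.41-fold. CDK1, level at day 1, was at 132 against 349 at day 2. Since the control differs between the days as well, these are values side by side and not a time course.

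**Figure D4:**
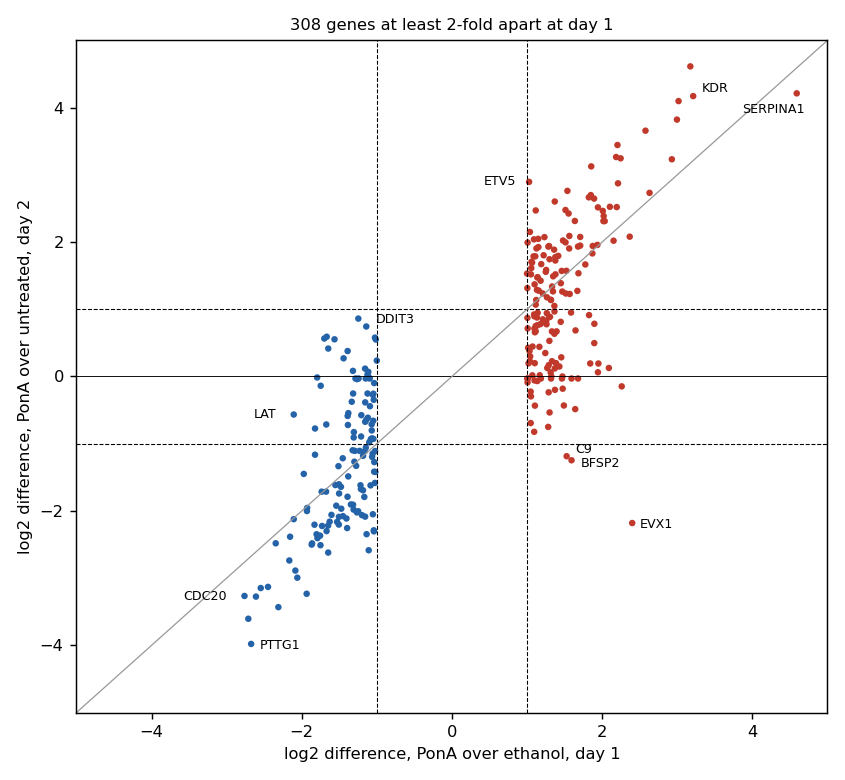
Log2 difference at day 2 (PonA over untreated, y) against day 1 (PonA over ethanol, x) for the 308 genes at least 2-fold apart at day 1, with dashed lines at 2-fold and a grey line of equal differences; the 4 arrays involved are all different. Of the higher genes (red) 94 are past 2-fold the same way at day 2 and 3 the opposite way, EVX1, BFSP2 and C9; of the lower genes (blue) 81 are past it the same way.

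The summed signals of markers of other cell types were within 2-fold between the arrays, although single genes in those lists differed. Bright genes weigh most in such sums. UCHL1 alone was at 2303 with PonA and 2701 with ethanol in the neuronal list, and CNP at 660 and 521 in the oligodendrocyte list. Of 15 neuronal markers on the array 8 were measured, and their sum over the list was 5668 with PonA and 5710 with ethanol, within 4586 to 5807 on the 6 arrays. In that list DCLK1 was higher and GAP43, a growth cone protein, lower at 64.7 against 184. NEFL, SNAP25, STMN2 and DCX were under the floor on both arrays. Of 13 haematopoietic markers 8 were measured, with sums of 496 and 536, and PTPRC, SPI1 and CD3D were under the floor. Of 8 oligodendrocyte markers 3 were measured, with sums of 999 and 846, and MBP, OLIG2 and SOX10 were under the floor on these 2 arrays. Of 11 fibroblast and epithelial markers 5 were measured, with sums of 1328 and 1442, and COL3A1, LUM, EPCAM and CDH1 were under the floor. For the glial and glioma list the sums were 15797 and 13708. Its members at least 2-fold higher were SLC1A3 and GLUL, glutamine synthetase, at 1306 against 531, with 532 in untreated cells at day 1 and 993 at day 2. Their part in the other differences was not tested.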

How the data were processed

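RNA of 6 cultures was hybridized to Affymetrix Human Genome U95 Av2 arrays, 1 array per condition. The deposited values are MAS5 signal, an intensity on a linear scale, made by the authors with MAS5 per the submitters' processing notes, with the version not given in the sources used here. Each array's mean without its lowest and highest 2% of probe sets is about 150.07, so the authors had scaled the arrays. No further scaling was applied. Of 12558 probe sets that are not controls (67 are), 10943 have 1 symbol in the platform annotation; 10934 of these matched a RefSeq gene table (GRCh38.p14) through Entrez identifiers. A gene is represented by its probe set with the highest mean over 6 arrays. Floors, log2 differences and counts were computed in Python 3.11.15 with numpy 2.4.6 and pandas 2.3.3, and the script was tested on simulated data.

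Genes named are the 12 largest differences in each direction measured on both arrays, the 6 largest bounds in each direction, up to 4 members of each list at least 2-fold apart (or its 2 brightest), and all SYK and RXRA probe sets; other list members were chosen after their values were seen. The genes and the 38 lists were chosen with earlier results of these data known. Alternatives were a floor at the 20th or 60th percentile, a pseudocount of 16 without a floor, quantile normalization and untreated cells as control. Further ones were the mean of a gene's probe sets above the floor on either array, and only genes above the floor on both arrays. The number of arrays limits the precision. Promoter windows, 250 bases before to 50 after a start, are from RefSeq.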

Additional observations from a re-analysis of the deposited data

Results flagged for a closer look

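EVX1, BFSP2 and C9 were the 3 genes at least 2-fold higher with PonA than with ethanol at day 1 and at least 2-fold lower with PonA than in untreated cells at day 2. For EVX1 the log2 differences were 2.40 at day 1 and -2.18 at day 2. For BFSP2, a lens filament protein, they were 1.59 and -1.25, and its signal was 92.4 with PonA and 30.7 with ethanol at day 1, 91.1 and 71.9 in untreated cells at days 1 and 2, and 30.3 with PonA at day 2. For C9, a component of the complement attack complex, they were 1.53 and -1.19, with 78.1 and 27.1 at day 1, 37.3 and 70.7 in untreated cells, and 31.1 with PonA at day 2. The difference between the days was not tested, since each value compares 1 array with 1 array.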

How the results depend on the processing

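No paired analysis was possible because each condition has 1 array. The counts moved most with the floor. At the 20th percentile 564 probe sets lay higher by 2-fold or more and 500 lower, and 351 and 322 genes. At the 60th percentile these were 116 and 94 probe sets, and 91 and 72 genes. The other alternatives kept the counts of genes within 1.5 times: 158 higher and 127 lower with a pseudocount of 16, 163 and 149 after quantile normalization, 216 and 180 with untreated cells as control, and 141 and 102 for genes above the floor on both arrays. With untreated cells as control the median of the kinesin and spindle list was -1.64, that of the serpin list 0.46, and ACTA2 reversed to 0.57. The list of SYK and its family has no measured member at the 60th percentile. The cause of these shifts was not tested. Of the 103 named genes at least 2-fold apart, 88 stayed so in the same direction with the pseudocount and 100 after quantile normalization. With the mean of a gene's probe sets 97 of 103 did, but probe sets under the floor on both arrays were left out of that mean. With the floor at the 60th percentile 73 of 96 stayed so, and with untreated cells as control 90 of 101. Named genes under the floor on both arrays compared in those settings are not in the 96 and the 101. Differences against a signal at the floor are bounds.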

Other observations

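ATF4 and ASNS each had signals within 2-fold between PonA and ethanol at day 1, and on both arrays above untreated cells, unlike DDIT3 of the same response, which was at 181 with PonA and 399 with ethanol. ATF4, the transcription factor of the integrated stress response, was at 752 with PonA and 822 with ethanol, against 403 and 458 in untreated cells at days 1 and 2, 879 with PonA at day 2 and 418 in untransfected cells. ASNS, asparagine synthetase, was at 345 and 387, against 154 and 157 in untreated cells, and at 407 with PonA at day 2. Both genes were high on the 3 arrays that received ethanol and low on the 3 that did not. HSPA5, the chaperone BiP of the endoplasmic reticulum, was instead at 2017 with PonA and 1068 with ethanol, within 2-fold, against 1170 and 918 in untreated cells and 2242 with PonA at day 2. PDGFRA, a growth factor receptor of glial progenitors, was at 118 with PonA and 211 with ethanol, against 306 and 256 in untreated cells, 108 with PonA at day 2 and 381 in untransfected cells. These genes were chosen after their values were seen.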
